A study of Mus musculus with 2 samples.

Results

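The cells described here are activated fibroblasts, fibroblast barcodes in mouse heart single-cell RNA data that carried much RNA of Postn, which encodes the matrix protein periostin, or of Cthrc1, a secreted protein of collagen-producing cells. They were chosen by measured values. A kept barcode had at least 300 detected genes and at most 10% of its unique molecular identifiers (UMIs) from the mitochondrial genome. A fibroblast had Col1a1, Col3a1 and Dcn summing to at least 20 per 10000 UMIs and the C1q genes of macrophages to at most 20. An activated fibroblast had Postn plus Cthrc1 of at least 5 per 10000 UMIs, and the other fibroblasts, called Postn-low here, served as the comparison within each library. Activated fibroblasts numbered 110 of 19916 barcodes, 99 in the library from hearts with transverse aortic constriction (TAC) and 11 in the sham library. Postn-low fibroblasts numbered 129 in the TAC library and 179 in the sham library.

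Both libraries came from wild-type C57BL/6 mice aged 10 weeks, with 6 mice per group. TAC narrows the aorta and loads the left ventricle with pressure, and sham mice had the operation without it. The sources used here do not give the time between operation and sampling. Heart cells were sorted for CD45, the surface protein of leukocytes, so fibroblasts here are those found in a leukocyte sort. Each group is 1 library of pooled mice, so condition and library cannot be told apart and no test across samples was made. All intervals are exact 95% intervals that cover counting error only.

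Resident cardiac fibroblasts hold the collagen scaffold of the heart and keep a set of quiescence genes. Under pressure load or injury they can become activated, secrete periostin, fibronectin and fibrillar collagens, crosslink the fibres through lysyl oxidases, and in part build the smooth muscle type actin cytoskeleton of myofibroblasts. A later state with tendon and cartilage type matrix proteins has also been described in scars. Transforming growth factor beta (TGF-beta), bound in the matrix by latent binding proteins, is a main inducer of this program, and it acts through SMAD proteins.

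The label was checked against markers. All 12 fibroblast markers, among them Pdgfra, Tcf21, Lum and Mgp, had UMIs in both sets of activated fibroblasts. Their sum per 10000 UMIs ran between 93.8 and 1058 in TAC activated fibroblasts (median 346) and between 116 and 411 in sham activated fibroblasts (median 210). The sum in Postn-low fibroblasts had medians of 395 in the TAC library and 380 in the sham library. Ptprc, the gene of CD45, had a UMI in 11 of 99 TAC activated, 11 of 129 TAC Postn-low, 0 of 11 sham activated and 10 of 179 sham Postn-low fibroblasts. Barcodes with more than 20 per 10000 UMIs of another class's markers were found in every set. Pan-leukocyte markers passed that level in 2 TAC activated, 3 TAC Postn-low, 0 sham activated and 5 sham Postn-low barcodes. Macrophage markers passed it in 0, 4, 0 and 3, and endothelial markers in 0, 2, 0 and 9 barcodes of the same sets. Of 8 T or NK cell markers 3 were at 0 UMIs in TAC activated and 7 in sham activated fibroblasts, and of 5 B cell markers 4 and 5 were at 0. The sums of these lymphocyte lists stayed at or under 0.895 per 10000 in each activated barcode. No activated barcode was among the 35 barcode sequences that both libraries held.

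The promoters of Postn, of Thbs4, the gene with the highest ratio in the TAC library, and of Fmod, another gene at the top of that ranking, are shown first. Postn is high by the rule itself. Fmod was detected in only 17 of 100 TAC activated barcodes when each barcode was thinned at random to 5000 UMIs. Postn lies on chromosome 3 at 54361109 to 54391037 on the plus strand, Thbs4 on chromosome 13 at 92751590 to 92794818 on the minus strand, and Fmod on chromosome 1 at 134037254 to 134048277 on the plus strand (GENCODE on GRCm38). The windows are the 250 bases before the RefSeq transcript start on GRCm38.p6, at chr3:54360857-54361106 (plus), chr13:92794819-92795068 (minus) and chr1:134037004-134037253 (plus). Capitals mark matches, on either strand, to the TATA box TATAAA, the SMAD half-site CAGAC and the TEAD motif GGAATG.
Postn: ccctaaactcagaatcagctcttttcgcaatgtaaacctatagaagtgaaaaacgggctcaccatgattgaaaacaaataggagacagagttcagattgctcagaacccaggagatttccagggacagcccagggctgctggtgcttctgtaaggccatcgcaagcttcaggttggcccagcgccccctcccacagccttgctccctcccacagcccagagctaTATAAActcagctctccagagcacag
Thbs4: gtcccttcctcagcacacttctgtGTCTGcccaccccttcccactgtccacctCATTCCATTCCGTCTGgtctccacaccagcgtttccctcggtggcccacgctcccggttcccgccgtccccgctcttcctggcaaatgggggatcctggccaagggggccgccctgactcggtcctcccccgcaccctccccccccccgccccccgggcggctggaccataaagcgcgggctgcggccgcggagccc
Fmod: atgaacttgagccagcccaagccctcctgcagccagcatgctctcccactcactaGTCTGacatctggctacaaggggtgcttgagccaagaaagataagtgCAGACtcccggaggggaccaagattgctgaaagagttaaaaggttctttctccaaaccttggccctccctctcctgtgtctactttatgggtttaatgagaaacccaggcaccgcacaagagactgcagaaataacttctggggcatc
The Postn window held a TATA box that begins 26 bases before the start. A match to TATAAA at any position, on either strand, was present in 12.97% of 27025 RefSeq windows of this length. The Thbs4 window held 2 SMAD half-sites (present in 42.1% of windows) and 2 TEAD matches (present in 12.6%) that overlap by 1 base, and the Fmod window held 2 SMAD half-sites. An AP-1 search with TGANTCA (present in 6.87% of windows) found no match in these windows, and an E-box search with CANNTG (present in 66.0%) found 1 match each in the Thbs4 and Fmod windows, left in lower case. RefSeq lists 2 windows for Postn, and the start of the printed one lies 2 bases from the GENCODE start. These are letter matches, and no binding was measured.

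Activated fibroblasts made up 43.4% of TAC fibroblasts (99 of 228, interval 36.9 to 50.1%) and 5.79% of sham fibroblasts (11 of 190, interval 2.93 to 10.1%). All fibroblasts made up 4.07% of kept barcodes in the TAC library and 4.56% in the sham library. With each barcode thinned to 5000 UMIs the shares were 45.2% (100 of 221) in TAC and 5.98% (11 of 184) in sham, with 9 TAC and 6 sham fibroblasts too shallow to use. The share is thus several times higher in the TAC library, and with 1 library per group its spread between animals is unknown.

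**Figure D1:**
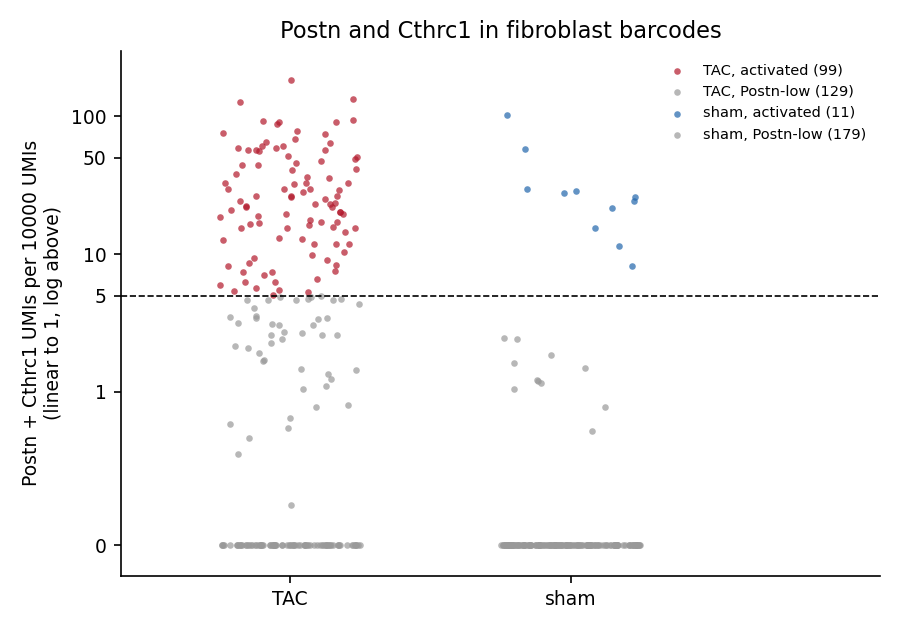
Postn plus Cthrc1 UMIs per 10000 UMIs in each fibroblast barcode (vertical axis, linear to 1 and logarithmic above) of the TAC and sham libraries; the dashed line is the threshold of 5 and horizontal spread is random. TAC fibroblasts fill the range across the line, while 11 sham fibroblasts lie above it and none lies between 2.45 and 8.15.

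Postn and not Cthrc1 defined the set. All 110 activated fibroblasts had a Postn UMI, and a rule with Postn alone chose the same barcodes. Cthrc1 had a UMI in 30 of 99 TAC activated and 2 of 11 sham activated fibroblasts, against 7 of 129 TAC Postn-low and 1 of 179 sham Postn-low fibroblasts. Among fibroblasts of each library, 1 barcode had Cthrc1 without Postn. The summed level of both genes had a median of 23.7 per 10000 and a maximum of 185 in TAC activated fibroblasts, and a median of 26.2 and a maximum of 103 in sham activated ones. At the threshold, the lowest TAC activated barcode had 5.03 and the highest TAC Postn-low barcode 4.96 per 10000, and 17 TAC fibroblasts lay between 4 and 6. In the sham library the nearest values were 8.15 above and 2.45 below. The TAC set thus borders on its comparison without a gap. Postn had a UMI in 2.104% of 3612 macrophage-like TAC barcodes (median depth 15645 UMIs) and in 0.346% of 3467 sham ones (median depth 9344), and none of these reached 5 per 10000. Outside the fibroblast set, 9 of 5601 kept TAC barcodes and 1 of 4169 kept sham barcodes did reach that level of Postn plus Cthrc1. The median depth of activated and Postn-low fibroblasts was 19870 and 12073 UMIs in the TAC library and 11902 and 8437 in the sham library.

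The genes of the rule are given as a description. Col1a1, a chain of type I collagen, had a median of 14.1 per 10000 UMIs in TAC activated, 6.19 in TAC Postn-low, 7.39 in sham activated and 6.997 in sham Postn-low fibroblasts. Col3a1, the type III collagen chain, had medians of 22.2, 7.93, 18.1 and 14.9 in the same order of sets. Dcn, the proteoglycan decorin, was lower in the activated sets, with medians of 120 in TAC activated against 180 in TAC Postn-low, and 131 in sham activated against 182 in sham Postn-low fibroblasts.

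Within the TAC library, activated fibroblasts carried more RNA of matricellular proteins, collagens, crosslinking enzymes, contractile proteins and TGF-beta pathway genes than Postn-low fibroblasts, and less of quiescence and complement genes. Interferon-stimulated genes were at like levels in both sets. UMIs were summed over the barcodes of a set (2181110 in activated and 1635845 in Postn-low) and scaled to CPM, a gene's UMIs relative to all UMIs of the set, and a gene was counted when its ratio was at least 2-fold among genes with at least 50 UMIs. By that measure 186 of 6748 genes were higher in activated fibroblasts (2.76%) and 171 were lower (2.53%). The median log2 ratio of all these genes was -0.05, and the rule's own genes are left out.

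Thbs4, thrombospondin 4, a matrix glycoprotein of tendon and stressed heart muscle, stood at 1069 CPM in TAC activated fibroblasts against 8.56 CPM in TAC Postn-low ones, 125-fold higher (interval 74.3 to 229), a log2 ratio of 6.91. With the threshold set at 10 per 10000 the log2 ratio was 3.92. It had a UMI in 61 of 99 activated and 7 of 129 Postn-low barcodes, and in 0.471% of macrophage-like TAC barcodes. After thinning to 5000 UMIs these were 47 of 100 activated and 4 of 121 Postn-low barcodes, so the gap in detection remained at equal depth. Thbs4 varied widely among activated fibroblasts, between 0 and 137 per 10000 UMIs with a median of 1.73.

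Cilp, cartilage intermediate layer protein, stood at 1574 CPM in TAC activated against 163 CPM in TAC Postn-low fibroblasts (9.64-fold, 8.51 to 10.96) and had a UMI in 93 of 99 activated and 51 of 129 Postn-low barcodes. Fmod, fibromodulin, a small proteoglycan that organises collagen fibrils, stood at 123 against 3.06 CPM (40.2-fold, 17.0 to 125), but 1 barcode held 42.2% of its UMIs in the activated set. Ddah1, which breaks down inhibitors of nitric oxide synthase, was at 158 against 2.45 CPM (64.7-fold, 25.04 to 239), and 1 barcode held 31.6% of its UMIs in the activated set. Of 13 measured genes of late-stage and cartilage-type matrix, 11 passed 2-fold upward in TAC activated fibroblasts and 0 downward (median log2 ratio 1.75). The lists of this report overlap, and Thbs4, Cilp and Ltbp2 are also among the matricellular genes. Not all of the list was there: Chad, a cartilage leucine-rich protein, and Wif1, a Wnt inhibitor, had 0 UMIs in TAC activated fibroblasts.

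Among matricellular and fibre proteins, 14 of 30 measured genes passed 2-fold upward in TAC activated over TAC Postn-low fibroblasts and 2 downward (median log2 ratio 0.93). Ltbp2, a latent TGF-beta binding protein family member of elastic fibres, stood at 609 against 78.9 CPM (7.73-fold, 6.45 to 9.33). Fn1, fibronectin, stood at 513 against 111 CPM (4.61-fold, 3.94 to 5.42). The direction was not shared by all: Fbln1, fibulin 1, was at 512 CPM in activated against 1133 CPM in Postn-low fibroblasts (2.22-fold lower), and Efemp1, an elastic fibre protein, was 3.29-fold lower.

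Of 17 collagens outside the rule, 5 were at least 2-fold higher in TAC activated fibroblasts and 1 was lower, with a median log2 ratio of 0.68. Col12a1, a chain that decorates fibril surfaces, showed the highest ratio at 85.7 against 7.95 CPM (10.8-fold, 6.16 to 20.6). Col8a1, a short-chain collagen, stood at 1311 against 325 CPM (4.03-fold, 3.67 to 4.43), and Col5a2, which sets fibril diameter, at 892 against 249 CPM (3.58-fold). Col8a2 was 6.54-fold higher. The basement membrane chain Col4a1 was at 1169 against 932 CPM, and Col5a3 was lower, at 51.4 in activated against 123 CPM in Postn-low fibroblasts.

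Crosslinking enzymes followed a narrower pattern. Of 22 measured genes of collagen processing and crosslinking, 4 passed 2-fold upward in TAC activated fibroblasts and 0 downward (median log2 ratio 0.40). These were the lysyl oxidases Loxl3 (212 against 47.1 CPM, 4.51-fold), Lox (300.3 against 69.1 CPM, 4.35-fold) and Loxl2 (308 against 131 CPM, 2.35-fold), and the lysyl hydroxylase Plod2 (208 against 69.7 CPM, 2.98-fold). The proteoglycan Aspn, asporin, was 4.18-fold higher (768 against 184 CPM), and 2 of 13 proteoglycans were at least 2-fold higher and 1 lower. Timp1, an inhibitor of matrix metalloproteinases, was 3.003-fold higher, while Mmp3 (stromelysin 1) was 3.12-fold and the serine protease Htra3 2.11-fold lower in activated fibroblasts.

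Among contractile genes, Tagln and Acta2 were higher in TAC activated fibroblasts and were detected in a minority of their barcodes. Tagln, transgelin, a smooth muscle actin-binding protein, stood at 320.5 CPM in TAC activated against 14.1 CPM in TAC Postn-low fibroblasts (22.8-fold, 15.1 to 36.2), with a UMI in 49 of 99 against 7 of 129 barcodes. Acta2, smooth muscle actin, stood at 88.9 against 20.2 CPM (4.41-fold, 3.04 to 6.59), with a UMI in 38 against 11 barcodes. The log2 ratio of Acta2 was 2.12, and it was 1.497 after thinning, 1.40 with the deepest 5% of barcodes left out and 3.54 with barcodes of mixed markers left out. Thinned to 5000 UMIs, Tagln was detected in 31 of 100 activated and 2 of 121 Postn-low barcodes, and Acta2 in 19 and 4. In macrophage-like TAC barcodes Tagln had a UMI in 1.11% and Acta2 in 3.10%. In the Postn-low set a lone barcode held 69.6% of the Tagln UMIs and 66.7% of the Acta2 UMIs. The 10 mural cell markers summed to 227 CPM in TAC activated and 202 CPM in TAC Postn-low fibroblasts, with 1 activated barcode at 48.6 and 1 Postn-low barcode at 30.7 per 10000 UMIs, and Myh11 and Vtn were at 0 in both sets and Higd1b in the Postn-low set. Their part in the Tagln and Acta2 result was not tested. Of 17 measured contractile and cytoskeletal genes 4 were at least 2-fold higher, with Actn1 (3.72-fold) and Palld (2.92-fold) the other two, and 0 were lower; the median log2 ratio was 0.59.

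In the TGF-beta pathway, 7 of 28 measured ligands, receptors and targets passed 2-fold upward in TAC activated fibroblasts and 0 downward (median log2 ratio 0.45). Ctgf, the matricellular growth factor also named Ccn2, stood at 2323 against 609 CPM (3.81-fold, 3.56 to 4.08). The ligand Tgfb3 was 2.22-fold higher. Sfrp2, a secreted Wnt modulator, was 2.43-fold higher, and it was the only 1 of 6 measured Wnt pathway genes past 2-fold.

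Among 23 measured transcription regulators of fibroblasts, 4 were at least 2-fold higher in TAC activated fibroblasts and 1 was lower, and the median log2 ratio was -0.15. Meox1, a homeobox factor of activated cardiac fibroblasts in mice, stood at 405 against 149 CPM (2.72-fold, 2.36 to 3.14) and had a UMI in 91 of 99 activated and 69 of 129 Postn-low barcodes. Scx, scleraxis, a regulator of tendon genes, stood at 35.8 against 1.83 CPM (19.5-fold, 6.43 to 96.6), but in only 17 activated barcodes and 1 Postn-low barcode. Prrx2 was 2.35-fold and Runx1 2.03-fold higher. Osr1, a developmental zinc finger factor, was 2.54-fold lower, and Tcf21, the factor of resident cardiac fibroblasts, was at 78.4 in activated against 151 CPM in Postn-low fibroblasts (1.93-fold lower).

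The quiescence program was lower in TAC activated fibroblasts. Of 28 measured genes of quiescent fibroblasts, 12 were at least 2-fold lower and 2 higher, with a median log2 ratio of -0.71. Penk, proenkephalin, had 0 UMIs in activated against 61.7 CPM in Postn-low fibroblasts, at least 44.9-fold lower against a floor of 3 counts over the set. Inmt, an indole methyltransferase, was at 2.75 against 89.3 CPM (32.4-fold lower, 14.6 to 89.9). Hsd11b1, which regenerates active glucocorticoid, was at 98.1 against 447 CPM (4.55-fold lower, 3.91 to 5.33), with a UMI in 54 of 99 and 101 of 129 barcodes. Enpp2 (autotaxin) was 6.17-fold lower, whereas the semaphorin Sema3d of the same list was 3.90-fold higher.

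Complement genes were lower too, with 6 of 12 measured members at least 2-fold lower, 1 higher, and a median log2 ratio of -0.77. C3, the central component, stood at 863 in TAC activated against 2403 CPM in TAC Postn-low fibroblasts (2.78-fold lower, 2.64 to 2.94), C4b at 237 against 537 CPM, and C7 at 39.9 against 106 CPM. The genes with the lowest ratios outside these lists were Igfbp3 (84.7-fold lower), Saa3 (17.1-fold), Ctla2a (12.8-fold), Ifitm1 (9.66-fold), Ggt5 (9.14-fold), Plac8 (6.70-fold) and Galnt15 (6.46-fold). Several of them rested on few barcodes: 1 Postn-low barcode held 71.6% of the Saa3 UMIs of its set and 1 held 47.2% of those of Igfbp3, and Ctla2a was found in 6 activated and 7 Postn-low barcodes and turned to a log2 ratio of 1.30 after thinning. The 11 endothelial markers summed to 27.1 CPM in TAC activated against 270.2 CPM in TAC Postn-low fibroblasts, and the neutrophil markers to 250.3 against 476 CPM. The part of these in the lower ratios was not tested. Glul, glutamine synthetase, was 3.80-fold lower and was spread over 69 of 99 activated and 95 of 129 Postn-low barcodes.

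Inflammatory mediators had no shared direction within the TAC library. Of 29 measured, 2 were at least 2-fold higher and 3 lower in activated fibroblasts, with a median log2 ratio of 0.07. The chemokine Ccl2 was at 682 against 243 CPM (2.80-fold, 2.51 to 3.14) and the cytokine Il6 2.32-fold higher, while Cxcl14, a chemokine of resident fibroblasts, was at 294 against 990 CPM (3.37-fold lower). Interferon-stimulated genes differed little: 0 of 46 were at least 2-fold higher and 1 was lower (Cxcl9), with a median log2 ratio of 0.10, and Iigp1, a GTPase of the interferon response, reached the highest ratio in the list at 1.83-fold. Other genes with high ratios were Rgs4 (70.6 CPM in activated, from 34 barcodes, against 1 UMI in Postn-low), Tnfrsf11b, the decoy receptor osteoprotegerin (15.4-fold), Dio2, a thyroid hormone deiodinase (8.74-fold), and Pamr1 (8.36-fold). Of 8 measured cell cycle genes 3 were at least 2-fold higher, led by Top2a, for which 1 activated barcode held 92.1% of the UMIs.

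**Figure D2:**
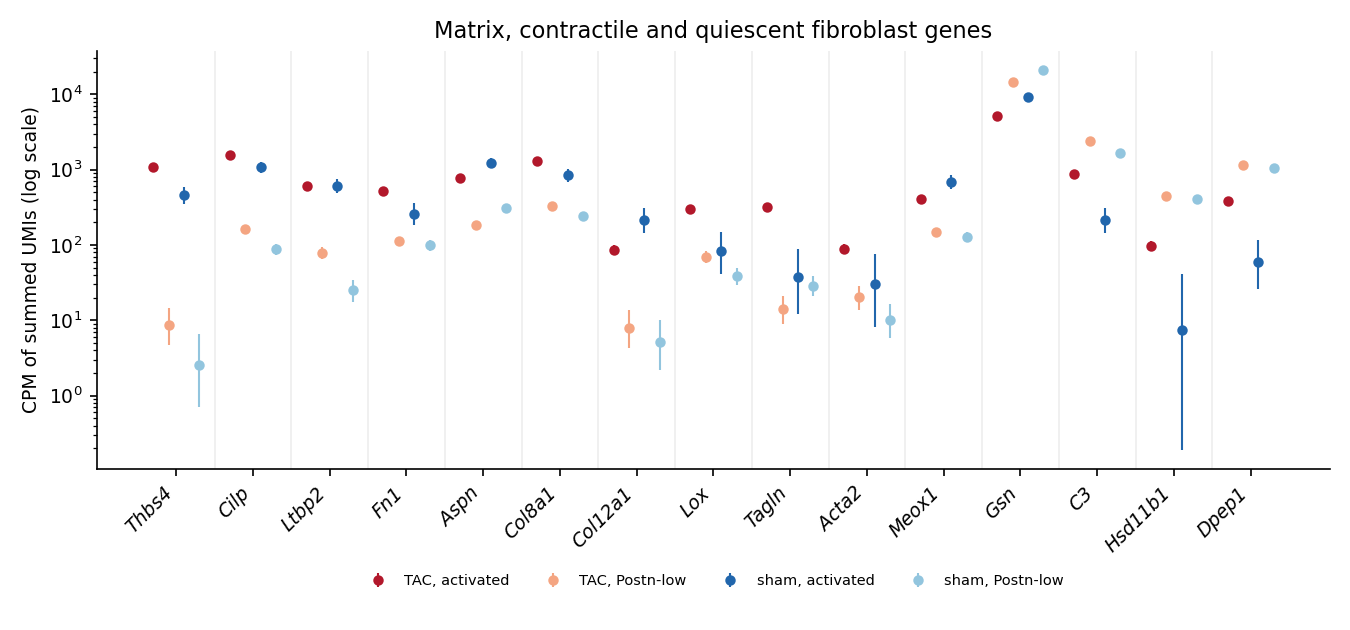
CPM of summed UMIs (logarithmic axis) of 15 genes in TAC activated, TAC Postn-low, sham activated and sham Postn-low fibroblasts; bars are 95% Poisson intervals for counting error. Thbs4, Cilp and Ltbp2 are higher in both activated sets than in the Postn-low set of the same library, and Gsn, C3, Hsd11b1 and Dpep1 are lower.

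The summed levels of several lists followed the level of Postn plus Cthrc1 step by step in the TAC library, and those of others did not. Fibroblasts were placed in 6 bins, at 0, above 0 to under 5, 5 to under 10, 10 to under 20, 20 to under 40, and 40 or more per 10000 UMIs, with 83, 46, 19, 22, 27 and 31 barcodes. The bins divide the same barcodes by the same values as the threshold, so they are no separate support for the comparison above. The third bin is thinly filled. Median depth went up along the bins too, with 11685 UMIs in the first and 25263 in the last.

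The summed level of matricellular and fibre genes was 11002, 13910, 20540.1, 22529, 27932 and 31781 CPM from the lowest to the highest bin. Collagens, crosslinking genes and TGF-beta pathway genes were likewise higher in each bin than in the one before. Late-stage genes summed to 1256, 2956, 6110.0, 4406, 7393 and 10333 CPM, complement genes to 11900.1, 8312, 9141, 5979, 6780 and 4893 CPM, and quiescence genes to 49976, 43718, 45707, 40919, 39460 and 27253 CPM. These 3 lists, and the contractile list, ended in the direction described above but did not change the same way at every step. Abundant genes weigh most in such sums. In the lowest bin Gsn and Mgp held 17225 and 16478 CPM of the quiescence sum. Gsn and Sparc, given below, are part of the quiescence and matricellular sums.

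Sparc, a collagen-binding matricellular protein chosen here after its values were seen, stood at 1975, 2707, 4574, 6175, 7604 and 8350 CPM from the lowest to the highest bin. Col8a1 stood at 259, 415, 558, 875, 1144 and 1937 CPM, and Ltbp2 at 34.9, 139, 285, 369, 516 and 925 CPM. These 3 genes were thus higher in each bin than in the one before it, including the first pair of bins, which both lie below the threshold. Thbs4 went differently. It stood at 1.06 and 18.8 CPM in the bins below the threshold, between 424 and 487 CPM in the next 3 bins, and at 2080 CPM in the highest. Gsn, gelsolin, stood at 17225, 10919, 8448, 6471, 4959 and 3286 CPM, and Hsd11b1 at 583, 261, 169, 154, 93.3 and 46.4 CPM, so both were lower in each bin than in the one before. Gbp2 and Psmb9, an interferon-induced GTPase and an immunoproteasome subunit, showed no such order, at 807 and 300.5 CPM in the lowest bin and 787 and 341 CPM in the highest.

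**Figure D3:**
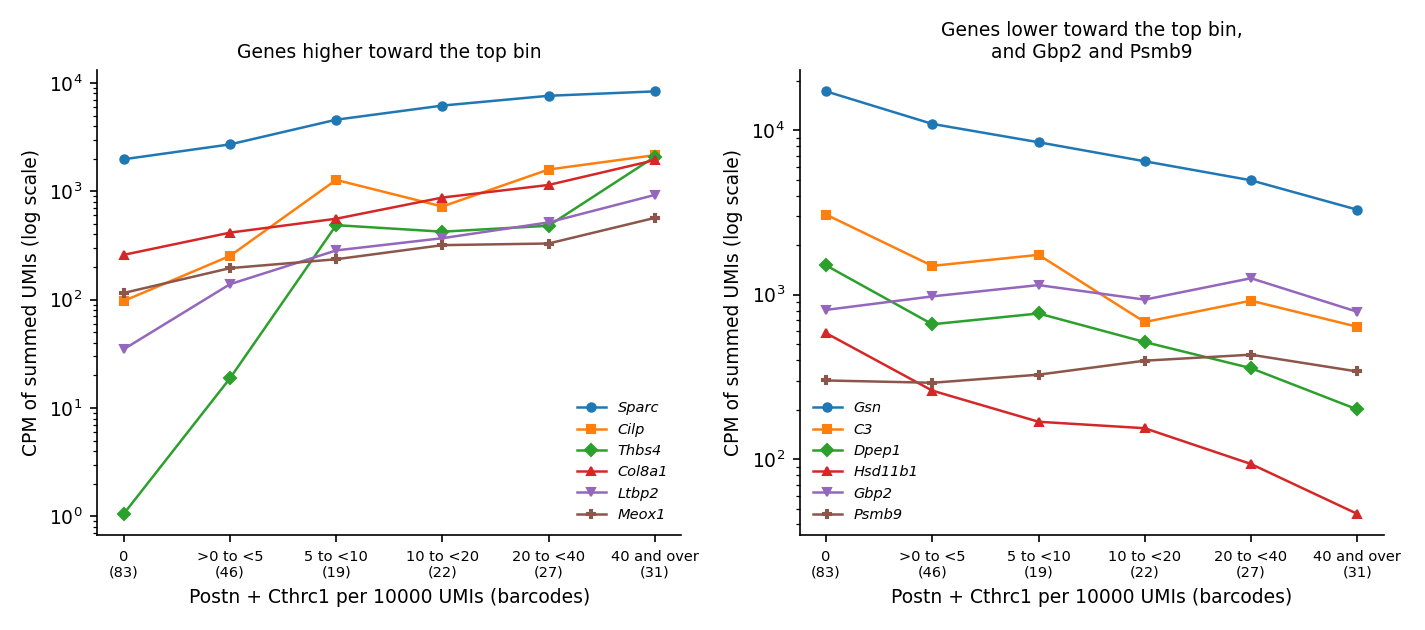
CPM of summed UMIs (logarithmic axes) in TAC fibroblasts placed in 6 bins of Postn plus Cthrc1 per 10000 UMIs, with the number of barcodes under each bin. The left panel shows matrix genes and Meox1, higher toward the highest bin, and the right panel shows Gsn, C3, Dpep1 and Hsd11b1, lower toward it, beside Gbp2 and Psmb9.

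Detection of single genes differed among activated fibroblasts of the TAC library. A gene of low level can go undetected at 5000 UMIs by sampling, and the part of this was not tested. After thinning to 5000 UMIs, Thbs4 was detected in 47 of 100 activated barcodes, Cilp in 88, Tagln in 31, Acta2 in 19, Fmod in 17 and Scx in 9. Of 17 barcodes with Fmod 14 also had Thbs4, as did 8 of 9 with Scx. Thbs4 was found in 19 of 31 barcodes with Tagln and in 13 of 19 with Acta2, and 10 barcodes had both Tagln and Acta2.

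A split of TAC activated fibroblasts by Cthrc1 gave 30 barcodes with a Cthrc1 UMI and 69 without, at median depths of 29319 and 17042 UMIs. Of 4889 genes, 1.27% were at least 2-fold higher in the Cthrc1 barcodes and 2.74% were lower. Of 13 late-stage and cartilage-type genes 6 were higher and 0 lower. Tagln stood at 565 CPM in barcodes with Cthrc1 against 146 CPM in those without (3.87-fold, 3.27 to 4.60), Scx at 67.2 against 13.3 CPM (5.04-fold) and Fmod at 240.3 against 39.3 CPM (6.12-fold, 4.48 to 8.50). With the barcode richest in each gene left out, a step chosen after seeing the data, these were 3.16-fold, 3.70-fold and 3.06-fold. The MHC class II genes Cd74 (139 against 584 CPM) and H2-Aa (56.2 against 281 CPM) had 70.2% and 72.6% of their UMIs in the activated set in 1 barcode each, in the set without Cthrc1. With the richest barcode of each gene left out they stood at 139 against 112 CPM and 56.2 against 51.2 CPM, so the lower level of each rested on 1 barcode. Postn differed too, with a median of 33.6 per 10000 UMIs in barcodes with Cthrc1 and 19.7 in those without. The split thus also sorts by Postn level and by depth, and the part of each in the result was not tested.

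The sham library held only 11 activated fibroblasts with 133769 UMIs, against 1563100 UMIs in 179 Postn-low ones, so its ratios are coarse. In it, as in TAC, most measured late-stage matrix genes were higher and most quiescence genes lower in activated fibroblasts. Of 4447 genes, 5.53% were at least 2-fold higher and 11.8% lower, and with at least 200 UMIs over both sets 51 genes were higher and 109 lower. Of 14 measured late-stage and cartilage-type genes 10 were higher and 2 lower (median log2 ratio 2.70, interval of the median over genes -0.79 to 3.80). Of 28 quiescence genes 17 were lower and 1 higher (median log2 ratio -1.37). Medians of other lists were 0.31 for matricellular genes (-0.22 to 1.48) and 0.37 for crosslinking genes (-0.34 to 0.69). Contractile genes had 0.31 (-0.20 to 0.86) and TGF-beta pathway genes 0.45 (-0.08 to 1.42).

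Ltbp2 stood at 613 CPM in sham activated against 24.95 CPM in sham Postn-low fibroblasts (24.6-fold, 16.6 to 37.0), with a UMI in 9 of 11 and 18 of 179 barcodes. Cilp stood at 1076 against 88.3 CPM (12.2-fold, 9.59 to 15.5), again with a UMI in 9 of 11 activated barcodes. Ctgf was 8.53-fold, Meox1 5.38-fold, Aspn 3.97-fold and Col8a1 3.50-fold higher. With the deepest 5% of barcodes left out, the log2 ratio of Meox1 was 1.28. Thbs4 was also higher (456 against 2.56 CPM), but 1 activated barcode held 85.2% of its UMIs, as 1 held 75.9% of those of Prg4 (lubricin). Dkk3, a secreted Wnt pathway protein, was 13.5-fold higher and came from 8 of 11 barcodes.

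On the lower side, Hsd11b1 had 1 UMI in 11 sham activated barcodes, 7.48 CPM against 408 CPM in Postn-low ones (54.6-fold lower, 9.76 to 2160). Dpep1, a dipeptidase of resident fibroblasts, stood at 59.8 against 1065 CPM (17.8-fold lower), and C3 at 217 against 1661 CPM. Cxcl14 had 0 UMIs against 521 CPM, at least 23.2-fold lower. Penk and Ccl2 each had 1 UMI. Of 21 interferon-stimulated genes measured in this comparison, 9 were at least 2-fold lower in sham activated fibroblasts and 0 higher (median log2 ratio -0.89, and -0.73 with the 3 genes at 0 UMIs placed at their bound). Pan-leukocyte markers summed to 59.8 CPM in sham activated against 381 CPM in sham Postn-low fibroblasts, endothelial markers to 82.2 against 555 CPM and erythroid markers to 44.9 against 3800.1 CPM, the last with 1 Postn-low barcode at 5041 per 10000 UMIs. The part of these in the result was not tested. Collagens did not share a direction in the sham library, with 2 of 15 at least 2-fold higher and 4 lower. Xirp2, Tcap and Nexn, genes of heart muscle, were also among the highest ratios. A lone sham barcode held 95.9% of the Xirp2 and 94.1% of the Nexn UMIs, and 1 sham activated barcode carried cardiomyocyte markers at 47.7 per 10000 UMIs.

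The comparisons of activated with Postn-low fibroblasts use different barcodes in the 2 libraries. Of 4410 genes measured in both, 73 were at least 2-fold higher in the TAC library and 242 in the sham library, and 42 in both, which is 57.5% of the TAC list and 17.4% of the sham list. Of those lower, 123 in TAC and 513 in sham, 84 were shared, 68.3% and 16.4% of the lists. Opposite calls numbered 5 genes higher in TAC and lower in sham, and 3 genes the other way round. Over all genes tested in each library, 2.76% of 6748 were higher and 2.53% lower in TAC. In sham 5.53% of 4447 were higher and 11.8% lower. The sham calls come from 11 activated barcodes, so counting error can carry a gene past 2-fold there.

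**Figure D4:**
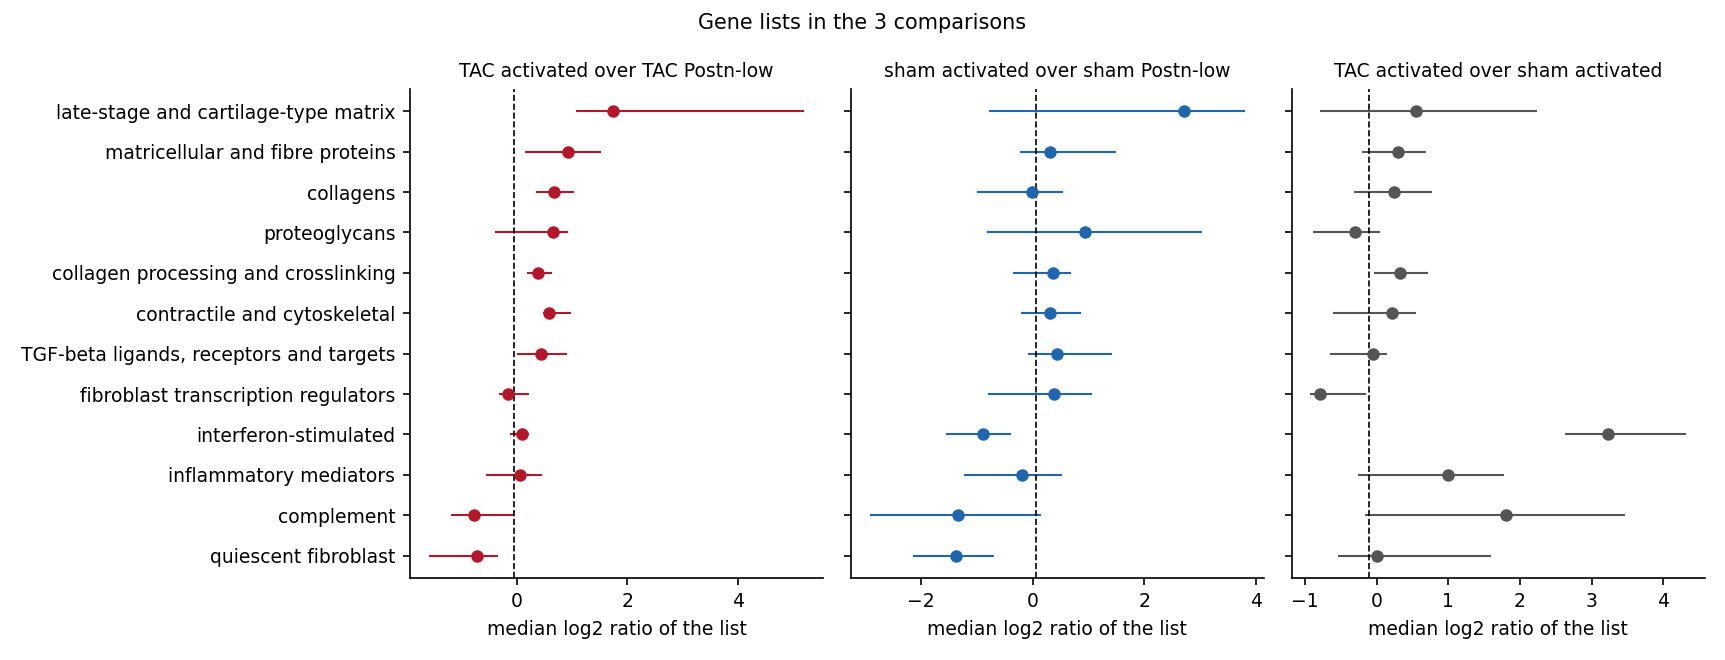
Median log2 ratio of 12 gene lists (points) in the 3 comparisons, with bars for the distribution-free interval of the median over the genes of a list; dashed lines are the median of all genes tested, and each panel has its own axis range. Late-stage matrix lies to the right and quiescence to the left in both activated to Postn-low comparisons, and interferon-stimulated genes have a median of 3.23 in the TAC to sham panel.

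Between the libraries, TAC activated fibroblasts carried far more RNA of interferon-stimulated genes than sham activated ones. Collagens and matricellular genes differed less, with median log2 ratios of 0.24 and 0.30. The late-stage matrix list had a median of 0.54, and of 2.33 with the deepest 5% of barcodes left out. The same TAC barcodes enter here as in the comparison with TAC Postn-low fibroblasts. Of 5119 genes, 11.3% passed 2-fold upward in TAC activated fibroblasts and 7.58% downward. The sham set holds few UMIs, so counting error can carry a gene past 2-fold. With at least 200 UMIs over both sets 179 genes passed upward and 45 downward. Of 44 measured interferon-stimulated genes 43 passed 2-fold upward and 0 downward, and their median log2 ratio was 3.23. With the 15 genes that had 0 UMIs in the sham set placed at their bound, the median was 2.32.

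Iigp1 stood at 1972 CPM in TAC activated fibroblasts, with a UMI in 91 of 99 barcodes, against 0 UMIs in the 11 sham activated ones, at least 87.9-fold higher. Gbp2 stood at 996 against 22.4 CPM (44.4-fold, 15.2 to 216), from 3 sham UMIs. Psmb9 stood at 377 against 7.48 CPM (50.4-fold, 9.02 to 1994) and Gbp7, another guanylate-binding protein, at 419 against 7.48 CPM (56.0-fold, 10.0 to 2214), each from 1 sham UMI. Igtp, an immunity-related GTPase, had 570.4 CPM against 0 UMIs, at least 25.4-fold higher. The smallest bounds in the list were those of Cxcl9 (at least 1.39-fold) and Usp18 (at least 2.19-fold).

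The same genes were higher in TAC among Postn-low fibroblasts, where 41 of 44 passed 2-fold upward and 0 downward (median log2 ratio 2.63), against 3.71% and 3.25% of all genes in that comparison. Iigp1 stood at 1075 CPM in TAC Postn-low against 27.5 CPM in sham Postn-low fibroblasts. It had a UMI in 78.8% of macrophage-like TAC barcodes and 14.4% of sham ones. Whether activated and Postn-low fibroblasts differ in this was not tested. Neutrophil markers summed to 250.3 CPM in TAC activated against 0 in sham activated fibroblasts, and to 476 CPM in TAC Postn-low against 13.4 in sham Postn-low ones, with all 9 neutrophil markers at 0 in the sham activated set. Pan-leukocyte markers summed to 340 CPM in TAC activated against 59.8 CPM in sham activated fibroblasts. Erythroid markers summed to 882 CPM in TAC activated, with 1 barcode at 485 per 10000 UMIs, against 44.9 CPM in sham activated fibroblasts. The mitochondrial genome list was lower in TAC (median log2 ratio -1.01), and the median mitochondrial share was 3.22% in TAC activated against 6.33% in sham activated fibroblasts. The part of these in the result was not tested.

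**Figure D5:**
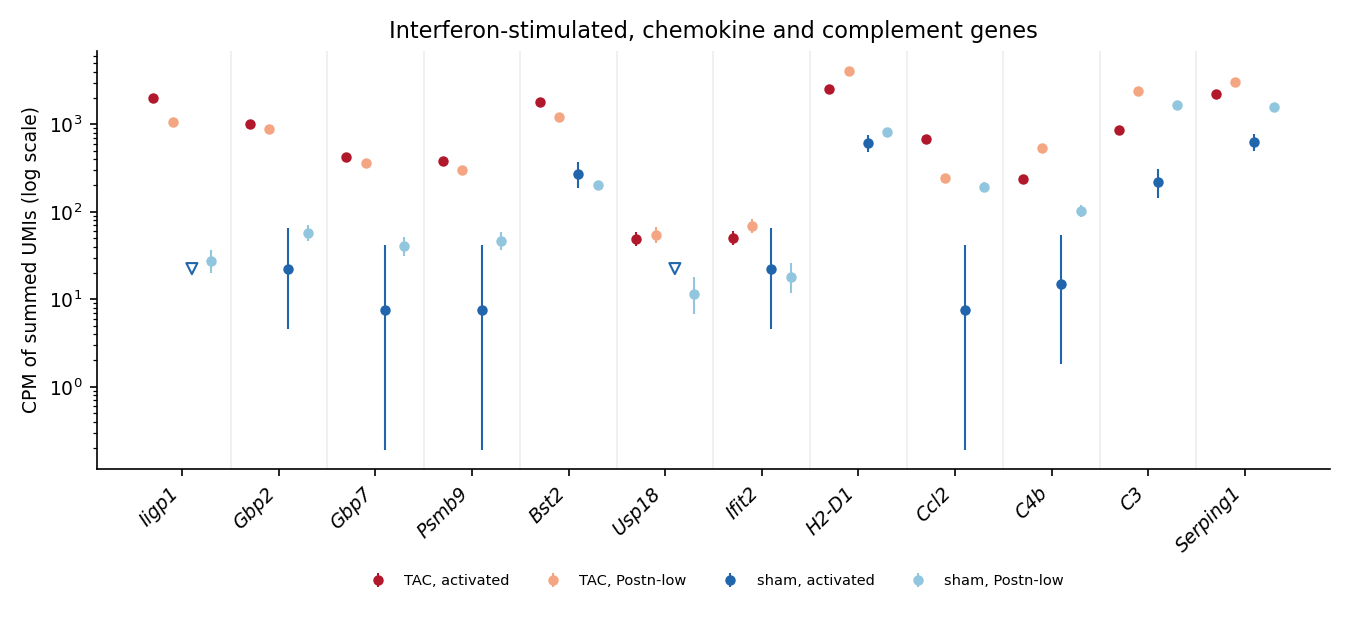
CPM of summed UMIs (logarithmic axis) of interferon-stimulated genes, Ccl2 and complement genes in the 4 sets of fibroblasts; bars are 95% Poisson intervals, and open triangles mark sets with 0 UMIs, placed at the floor of 3 counts. Iigp1, Gbp2, Gbp7 and Psmb9 are higher in both TAC sets than in both sham sets.

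Inflammatory mediators and complement genes were compared in the same way. Of 27 inflammatory mediators 13 were at least 2-fold higher and 2 lower (median log2 ratio 0.99, interval of the median over genes -0.26 to 1.77). Ccl2 stood at 682 against 7.48 CPM (91.2-fold, 16.3 to 3605), from 1 sham UMI, and 1 TAC barcode held 25.9% of its UMIs. Of 9 complement genes 5 were higher and 1 lower. C3 stood at 863 against 217 CPM (3.98-fold, 2.76 to 5.96), C1s1 at 289.8 against 22.4 CPM (12.9-fold, 4.401 to 62.8, from 3 sham UMIs), and Serping1, the C1 inhibitor, at 2209 against 628 CPM (3.52-fold, 2.83 to 4.42).

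Among matrix genes, 7 of 30 matricellular and fibre genes passed 2-fold upward in TAC activated over sham activated fibroblasts and 3 downward, and 3 of 17 collagens were higher and 3 lower, with median log2 ratios of 0.30 and 0.24. Lox stood at 300.3 against 82.2 CPM (3.65-fold, 2.03 to 7.35), with 81.8% of the 11 sham UMIs in 1 barcode, Loxl3 was 3.55-fold and Col4a1 3.26-fold higher. Tagln stood at 320.5 against 37.4 CPM (8.57-fold, 3.66 to 26.5), and Acta2 at 88.9 against 29.9 CPM (2.97-fold, 1.14 to 11.03), from 5 and 4 sham UMIs. The ligand Tgfb1 was 3.07-fold higher (1.39 to 8.42). Wisp2, a matricellular protein also named Ccn5, was 5.73-fold higher, with 88.9% of the sham UMIs in 1 barcode.

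Some genes were lower in the TAC set. Dkk3 stood at 117 CPM in TAC activated against 568 CPM in sham activated fibroblasts (ratio 0.21, 0.16 to 0.27), Meox1 at 405 against 695 CPM (ratio 0.58, 0.47 to 0.73), and Tgfbi, a TGF-beta induced adhesion protein, at 50.4 against 247 CPM (ratio 0.20, 0.14 to 0.31). Of 17 transcription regulators 4 were at least 2-fold lower, among them the cardiac factor Tbx20 (ratio 0.32), and 0 were higher, with a median log2 ratio of -0.78. Quiescence genes were mixed, with 8 of 24 at least 2-fold higher and 3 lower. Dpep1 was higher in TAC (383 against 59.8 CPM, 6.40-fold), as was Hsd11b1, whereas Sema3c was lower (ratio 0.26). Late-stage and cartilage-type genes were higher in 6 of 13 and lower in 1, with Sfrp2 7.81-fold and Ddah1 5.29-fold higher in TAC. Thbs4 was 2.34-fold higher (1.82 to 3.08). Some of these values moved when the deepest 5% of fibroblast barcodes of each library were left out, which left 7 sham activated fibroblasts. The log2 ratio of Thbs4 was then 4.03, that of Meox1 turned to 0.33, and the median of the late-stage list was 2.33 in place of 0.54. The parts of the TAC and the sham barcodes in this were not tested apart.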

How the data were processed

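The authors deposited raw UMI counts per gene and barcode for 1 sorted CD45+ library per group, with no normalisation. Cell Ranger 3.0 and mm10 are named in the submitters' processing notes. How barcodes were called as cells, and any doublet removal, are not given in the sources used here, and no doublet caller was run. The matrices list 31053 features. Total UMIs over all barcodes were 97983083 in TAC and 87532984 in sham.

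The filters of the report left 5601 TAC and 4169 sham barcodes. UMIs were summed per set and given as CPM. A ratio carries an exact conditional binomial interval, a CPM an exact Poisson interval and a share a Clopper-Pearson interval, all at 95% and for counting error only. Zero counts were placed at a floor of 3 counts over the set. A list was summarised over its genes that had 50 UMIs or more in all by the median log2 ratio, with 0.5 UMI added, and by members past 2-fold. With 1 library per group and cells that are not replicates, no p-value was computed. The activated fibroblasts, gene lists and comparisons were chosen with earlier results of these data known.

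Genes were named by rule: the 10 highest and 10 lowest ratios per comparison (CPM of 50 or more in a set, and 50 UMIs in all), up to 4 highest and 4 lowest members of each list, the genes of the gate, and marker genes. The ranking left out genes of the mitochondrion, ribosome and haemoglobin, antigen receptor segments, predicted and sex-linked genes, and other cell classes' markers. Not every gene the rule allows is named, and some are not reported here. Sparc, Chad, Wif1, Cd74 and H2-Aa were chosen after their values were seen. Macrophage-like barcodes had C1q genes of at least 50 and Col1a1, Col3a1 and Dcn under 20 per 10000 UMIs. The scripts were tested on simulated data. Promoters are RefSeq windows on GRCm38.p6; of the 14 genes looked up 7 matched, and gene positions are from GENCODE vM21 on GRCm38. Computing used matplotlib 3.10.9, pandas 2.3.3, scipy 1.17.1, numpy 2.4.6 and Python 3.11.15.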

Additional observations from a re-analysis of the deposited data

Results flagged for a closer look

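The cell cycle list had medians of opposite sign in the 2 libraries. The interval of the median over genes includes 0 in TAC, as does the range of the 3 measured genes in sham. In TAC 3 of 8 measured genes passed 2-fold upward and 0 downward, and in sham 0 of 3 passed either way. Its median log2 ratio of activated over Postn-low fibroblasts was 0.85 over 8 measured genes in TAC (interval over genes -0.62 to 4.25). In sham it was -0.54 (range of the 3 genes -0.77 to 0.26), and the difference was not tested. In TAC the highest ratios rested on few barcodes, with 92.1% of the Top2a UMIs and 77.8% of the Stmn1 UMIs of the activated set in 1 barcode. With no UMI minimum the sham median was 0.87. Of the 34 genes of the list, however, 24 had 0 UMIs in sham activated and 10 had 0 in sham Postn-low fibroblasts. For such genes the added 0.5 UMI raises the ratio, because the activated set holds far fewer UMIs. The value of 0.87 therefore gives no direction.

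Fibroblasts above the limit of 10% mitochondrial UMIs were used in no comparison. Of these, 26.7% in TAC (4 of 15, interval 7.79 to 55.1%) and 1% in sham (1 of 100, interval 0.0253 to 5.45%) met the Postn plus Cthrc1 threshold, a difference in the same direction as in the kept barcodes.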

How the results depend on the processing

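No paired analysis was possible because each group is 1 library, and for the same reason no replicate could be left out. The share of activated fibroblasts moved most with the threshold and the mitochondrial limit. At Postn plus Cthrc1 of at least 10 it was 35.1% in TAC, and its log2 ratio of TAC over sham was 2.74. At a limit of 5% mitochondrial UMIs it was 12.5% in sham with 1 barcode left, and the log2 ratio was 1.95; comparisons with sham activated fibroblasts could not be made there. Counts of genes past 2-fold moved with the UMIs behind them, given here as higher and lower for TAC activated over TAC Postn-low, sham activated over sham Postn-low and TAC activated over sham activated. Thinned to 5000 UMIs they were 105 and 80, 159 and 327, and 238 and 67. With at least 200 UMIs they were 83 and 53, 51 and 109, and 179 and 45. With no minimum they were 838 and 1210, 3358 and 935, and, for the last comparison, 4116 lower. Over all alternatives, 1420 of 1521 values of named genes and 1253 of 1275 list medians stayed within their counting interval or, for lists, the interval of the median over genes. For lists with few measured genes that interval is the range of the genes. Part of these totals was fixed in advance. Changing or dropping the UMI minimum cannot alter the ratio of a gene, and a threshold on Postn alone left the barcodes the same. Each of these settings added 112 gene values that could not move. Wide intervals, such as those of many sham ratios, are also easy to stay within. Ctla2a reversed when thinned (log2 ratio 1.30), and in the Cthrc1 split Cd74 (0.32) and H2-Aa (0.14) reversed with their richest barcode left out. The log2 ratio of Thbs4 in TAC activated over TAC Postn-low fibroblasts was 6.91, and 3.92 with the threshold of 10. A threshold on Postn alone, added after seeing the data, chose the same barcodes. The deepest 5% of barcodes were left out as a check on doublets, and 7 sham activated fibroblasts remained. In sham activated over sham Postn-low fibroblasts the log2 ratio was then 0.63 for Prg4 and 1.28 for Meox1. For TAC activated over sham activated fibroblasts that of Meox1 was 0.33.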
